A study of Mus musculus with 6 samples.

Results

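The hormone gene *Amh*, its receptor gene *Amhr2*, 4 SMAD genes (*Smad1*, *Smad5*, *Smad9* and *Smad6*) and 3 Id genes (*Id1*, *Id2* and *Id3*) were followed across the cell types of fetal mouse gonads. These 9 genes were taken by symbol from the 26251 genes listed in the series. Single cell mRNA was sequenced from gonads at E15.5 of control XY (*Amh*+/+; *Inhbb*+/+), dKO XY (*Amh*-/-; *Inhbb*-/-) and control XX (*Amh*+/+; *Inhbb*+/+) embryos, with 2 libraries per group. The mice had a C57BL/6 background, and both gonads of an animal were put together, dissociated, and kept frozen until the genotype was known. How many animals went into a library is not given in the sources used here. The knockout alleles are germline alleles, so no cell type of dKO XY keeps an intact copy. The dKO XY gonads lack *Amh* and *Inhbb*, which encodes the beta B chain of activin B, so that what the loss of either gene does alone cannot be told apart.

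AMH is a hormone of the TGF-beta superfamily that fetal Sertoli cells secrete and that makes the Müllerian ducts of male embryos regress. It binds AMHR2, a type II receptor used by no other known ligand, which recruits the type I receptors ACVR1 or BMPR1A. These phosphorylate SMAD1, SMAD5 and SMAD9, which enter the nucleus with SMAD4, as they do after a BMP signal. SMAD6 is an inhibitory SMAD that BMP signals induce and that dampens them. ID1, ID2 and ID3 bind E proteins and keep them off DNA, and their genes are widely used readouts of BMP-type SMAD activity. Activin B acts instead through SMAD2 and SMAD3.

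After filters, 39350 of 68064 barcodes were kept as cells, and the kept cells of a library held between 118475468 and 221675316 UMIs (counted mRNA molecules). Pairs of libraries shared between 4 and 25 cell barcodes. The share of barcodes with 25% or more of mitochondrial UMIs was 24.4% and 28.3% in dKO XY and between 2.22% and 9.35% in the other 4 libraries, and such barcodes were left out. Levels are given in CPM, the standard scaling of a gene's UMIs by the UMIs of all genes, with the cells of a type pooled within each library. The clusters were made without the 9 genes. Supporting cells (clusters with markers of Sertoli cells, granulosa cells or their shared lineage) numbered 259 and 534 in the control XY, 1284 and 958 in the dKO XY and 2998 and 1185 in the control XX libraries. Within them, subclusters called Sertoli-like from their markers held 190 and 407 control XY and 677 and 421 dKO XY cells. A further subcluster stayed unnamed and held 432 and 427 dKO XY but 11 and 25 control XY cells. Set against the other supporting cells, it was higher in 0 of 11 Sertoli, 2 of 8 granulosa, 7 of 8 interstitial and 5 of 6 Leydig markers. Those other cells include 2715 and 902 granulosa-like cells of control XX. When all cells were clustered, a cluster that likewise had *Tnnt2*, *Cnmd* and *Lcn3* among its top genes was named granulosa. It drew 459 cells from library 1 of dKO XY, with 467 from library 2. In an alternative clustering that kept all variable genes, the cluster with these top genes held 920 cells. Set against all other cells, it was higher in 1 of 11 Sertoli, 4 of 8 granulosa, 0 of 8 interstitial and 0 of 6 Leydig markers. The paper describes a feminized part of the dKO XY supporting cells, with less Sertoli and more granulosa marker expression. Whether the unnamed subcluster holds those cells was not tested. Over all supporting cells the interstitial markers summed to 828 and 936 CPM in control XY, 382 and 312 CPM in dKO XY and 142 and 367 CPM in control XX, and the Leydig markers to 118 and 162, 215 and 252, and 89.6 and 76.1 CPM. Their part in the supporting cell results was not tested. Interstitial cells of the XY libraries lay mostly in other clusters than those of control XX. Differences were tested with edgeR on the summed counts, with the libraries as replicates. They were called at a Benjamini-Hochberg adjusted p under 0.05 over all genes. Where 1 library was left out, its group held 1 library, and the spread came from the other groups. Calls gained or lost in such fits show the dependence on that library only.

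*Amh* lies on chromosome 10 of GRCm38 from 80805243 to 80807648. In supporting cells it was at 2047 and 1907 CPM in the control XY libraries, at 18.0 and 15.7 CPM in dKO XY and at 1.35 and 1.43 CPM in control XX. The 3 groups did not overlap, and the level in dKO XY was 117-fold lower than in control XY (log2 fold change -6.87 ± 0.17 SE, edgeR adjusted p = 6.01e-08). Compared with control XX it was 12.6-fold higher (3.66 ± 0.16, adjusted p = 3.05e-07). Every cell was then thinned to 5000 UMIs, so that depth did not set the share of cells in which a gene was seen. At this depth 100% and 99.8% of control XY Sertoli-like cells held an *Amh* UMI, against 11.4% and 10.5% in dKO XY. Without thinning, the shares were 100% in both control XY libraries and 47.3% and 48.7% in dKO XY. Endothelial cells, which should lack *Amh*, held a UMI in 22.3% and 23.5% of the dKO XY cells without thinning and in 2.73% and 0% after it. For cells with a UMI at the thinned depth, 0 of 119 cells allows a share of up to 2.52% by a limit of 3 counts (3.05% by the exact 95% binomial interval that the plot of shares draws). In Leydig cells of dKO XY the thinned shares, 6.44% and 9.86%, lay between those of endothelial and Sertoli-like cells. Their shares without thinning, 36.3% and 49.6%, and their levels, 12.7 and 20.9 CPM, overlapped those of Sertoli-like cells, which were at 23.5 and 19.1 CPM. The sources used here do not say where the deletion lies relative to the transcript ends that were counted, and which part of the transcript these UMIs came from was not tested.

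Outside supporting cells, *Amh* was found in every control XY cell type, far below the supporting cells. Interstitial cells had 11.5 and 32.3 CPM, Leydig cells 13.0 and 40.9 CPM, endothelial cells 10.7 and 37.4 CPM, immune cells 9.55 and 30.2 CPM, pericytes 13.6 and 46.5 CPM, and epithelial cells 5.14 and 127 CPM. In library 2 a single cell held 125 of the 257 endothelial and another 107 of the 203 epithelial *Amh* UMIs. Library 2 was the higher in each of these types. The supporting cells of the 2 libraries had similar levels, but made up 3.80% of the cells of library 1 against 6.23% for library 2. Counted over all cells, *Amh* was also lower in library 1 (102 CPM) than in library 2 (174 CPM). By that count dKO XY library 1 had 9.02 CPM, with 11.2 CPM for its library 2. In control XX interstitial cells, 1 and 5 *Amh* UMIs were counted among 1545 and 2948 cells. The part of free RNA in these values was not tested. The fall of *Amh* in dKO XY interstitial cells, to 6.26 and 7.41 CPM (log2 fold change -1.69 ± 0.41, edgeR adjusted p = 0.0484), is a difference at this level. It was not called under 12 of the alternatives, among them DESeq2 (adjusted p = 0.12) and the fit without control XY library 2 (-0.75, adjusted p = 0.131).

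**Figure D1:**
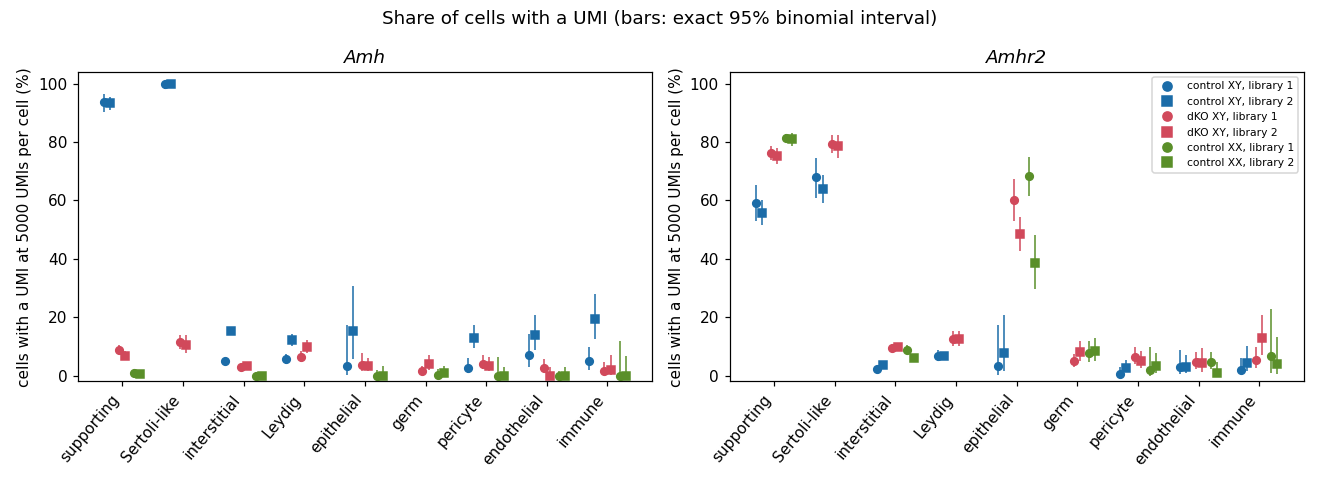
Percent of cells with at least 1 UMI of *Amh* (left) and *Amhr2* (right) after each cell was thinned to 5000 UMIs, by cell type and library, with exact 95% binomial intervals that cover counting error only. *Amh* was seen in nearly all control XY Sertoli-like cells and in 11.4% and 10.5% of those of dKO XY, while *Amhr2* was seen in more supporting and epithelial cells of dKO XY than of control XY.

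*Amhr2*, on chromosome 15 from 102445367 to 102454633, changed in the opposite direction to its ligand. The 250 bases before its start, chr15:102445117-102445366 on the plus strand of GRCm38.p6 (RefSeq), are shown because the gene rose in several cell types; capitals mark the motif AGGTCA, which nuclear receptors such as NR5A1 bind.
Amhr2: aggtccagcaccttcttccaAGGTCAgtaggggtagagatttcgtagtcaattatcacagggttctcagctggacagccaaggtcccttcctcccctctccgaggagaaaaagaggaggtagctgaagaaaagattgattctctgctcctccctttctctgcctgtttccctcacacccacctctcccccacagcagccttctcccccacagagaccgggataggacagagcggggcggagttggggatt
AGGTCA was found once here, on either strand, and 14.0% of 32851 RefSeq promoter windows of this length hold it. Neither GGCGCC, a GC-rich motif of BMP-responsive elements, nor CAGAC, a SMAD-binding motif, was present in the window.

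In supporting cells *Amhr2* reached 206 and 205 CPM in control XY, 345 and 323 CPM in dKO XY and 361 and 394 CPM in control XX. Both dKO XY libraries lay above both control XY libraries, a 1.63-fold higher level (log2 fold change 0.71 ± 0.12, edgeR adjusted p = 0.00325). Control XX was 1.77-fold higher than control XY (0.82 ± 0.12, adjusted p = 0.000311). The difference of dKO XY from control XX did not pass the test (-0.12, 95% interval from -0.35 to 0.11, adjusted p = 0.457). These 3 comparisons share their libraries. Restricted to Sertoli-like cells, the level was 233 and 238 CPM in control XY and 372 and 349 CPM in dKO XY. The rise was also called there (1.48-fold, 0.57 ± 0.13, adjusted p = 0.013), but not without dKO XY library 1 (0.55, adjusted p = 0.0646). Ligand and receptor mRNA were seen in the same cell in 67.9% and 63.9% of the thinned Sertoli-like cells of control XY. Since 100% and 99.8% of these cells held an *Amh* UMI, these shares are those of *Amhr2* alone. Thinned supporting cells held an *Amhr2* UMI in 59.1% and 55.8% of control XY, 76.3% and 75.3% of dKO XY and 81.5% and 81.0% of control XX cells (90.7% and 91.0%, 97.6% and 97.5%, and 98.4% and 97.2% without thinning).

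The dKO XY gonads had more *Amhr2* in every other cell type compared, in both libraries. Interstitial cells rose from 4.71 and 7.54 CPM to 23.0 and 25.5 CPM, which is 3.94-fold (1.98 ± 0.21, edgeR adjusted p = 0.0037). Leydig cells, the steroid-producing cells of the testis, rose from 14.5 and 17.5 CPM to 34.8 and 30.9 CPM, which is 2.01-fold (1.01 ± 0.13, adjusted p = 0.00641). In endothelial cells the levels were 2.94 and 2.91 CPM against 9.08 and 10.6 CPM (1.74 ± 0.40, adjusted p = 0.0948). Pericytes and immune cells differed in the same direction without passing the test (log2 fold changes 1.62 and 2.54, adjusted p = 0.112 and 0.192). Without control XY library 1 or 2, the values were 1.12 and 2.63 in pericytes and 1.85 and 3.58 in immune cells. Without the highest doublet scores they were 1.64 in pericytes and 1.68 in immune cells. The difference thus had the same direction in cells that should lack the receptor, and 2 quantities moved with it. Supporting cells made up 3.80% and 6.23% of control XY but 15.8% and 16.8% of dKO XY cells, and *Amhr2* over all cells of a library was 15.3 and 24.1 CPM in control XY and 82.8 and 85.8 CPM in dKO XY. Without the highest doublet scores, the mean level of dKO XY was 9.61 in place of 21.7 CPM in immune cells and 5.93 in place of 9.82 CPM in endothelial cells. It moved less in interstitial cells (22.3 in place of 24.3 CPM), Leydig cells (29.8 in place of 32.8 CPM) and pericytes (11.2 in place of 12.3 CPM). The part of free RNA and of doublets in the rise outside supporting and epithelial cells was not tested. In supporting cells the level was 27.2 to 43.7 times that of interstitial cells in control XY, 12.7 and 15.0 times in dKO XY and 17.0 and 24.7 times in control XX.

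The coelomic epithelium, which covers the gonad, was the other site of high *Amhr2* in dKO XY and control XX, but not in control XY. Its cells had 11.1 and 33.8 CPM in control XY, 205 and 165 CPM in dKO XY and 251 and 159 CPM in control XX. The dKO XY libraries were 8.07-fold higher than control XY (3.01 ± 0.38, edgeR adjusted p = 0.00343) and lay within the range of control XX. Without control XY library 1 the log2 fold change was 2.51, and without control XY library 2 it was 4.05. After thinning, 3.33% and 7.69% of these cells held an *Amhr2* UMI in control XY, against 60.2% and 48.5% for dKO XY and 68.4% and 38.6% for control XX (26.7% and 46.2%, 89.8% and 82.5%, and 91.7% and 70.2% without thinning). Control XY held 30 and 39 epithelial cells, dKO XY 186 and 297. Markers of other types moved too: the 8 interstitial markers summed to 5020 and 4628 CPM in control XY and to 1018 and 1323 CPM in dKO XY epithelial cells. The 8 granulosa markers summed to 628 and 644 CPM and to 1452 and 1401 CPM, and the 7 epithelial markers to 1693 and 1638 CPM and to 1917 and 1308 CPM. Their part in the *Amhr2* difference was not tested. In epithelial cells 4 of the 9 genes were called, against 6.36% of all genes tested there. *Smad6* was 2.84-fold lower (-1.504 ± 0.32, adjusted p = 0.0214), *Id2* was 3.63-fold lower (-1.86 ± 0.40, adjusted p = 0.0218), and *Amh* was called lower, at 5.14 and 127 CPM in control XY and 8.46 and 7.33 CPM in dKO XY (adjusted p = 0.0488). In the same cells *Id1* (-0.59), *Id3* (-1.35), *Smad1* (-0.09), *Smad5* (-0.48) and *Smad9* (-2.79) were not called. The *Amh* call came from control XY library 2, without which the log2 fold change was 0.62 (adjusted p = 0.69), and was also lost under the stricter mitochondrial filter (-0.40, adjusted p = 0.711), with all variable genes (adjusted p = 0.0942), without the highest doublet scores (adjusted p = 0.103) and without dKO XY library 1 or 2 (adjusted p = 0.165 and 0.217). *Smad6* and *Id2* kept their direction without any single library, but *Smad6* lost its call without any of the 4 XY libraries or without the highest doublet scores (-1.27, adjusted p = 0.0706), and *Id2* without control XY library 1, control XY library 2 or dKO XY library 2.

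**Figure D2:**
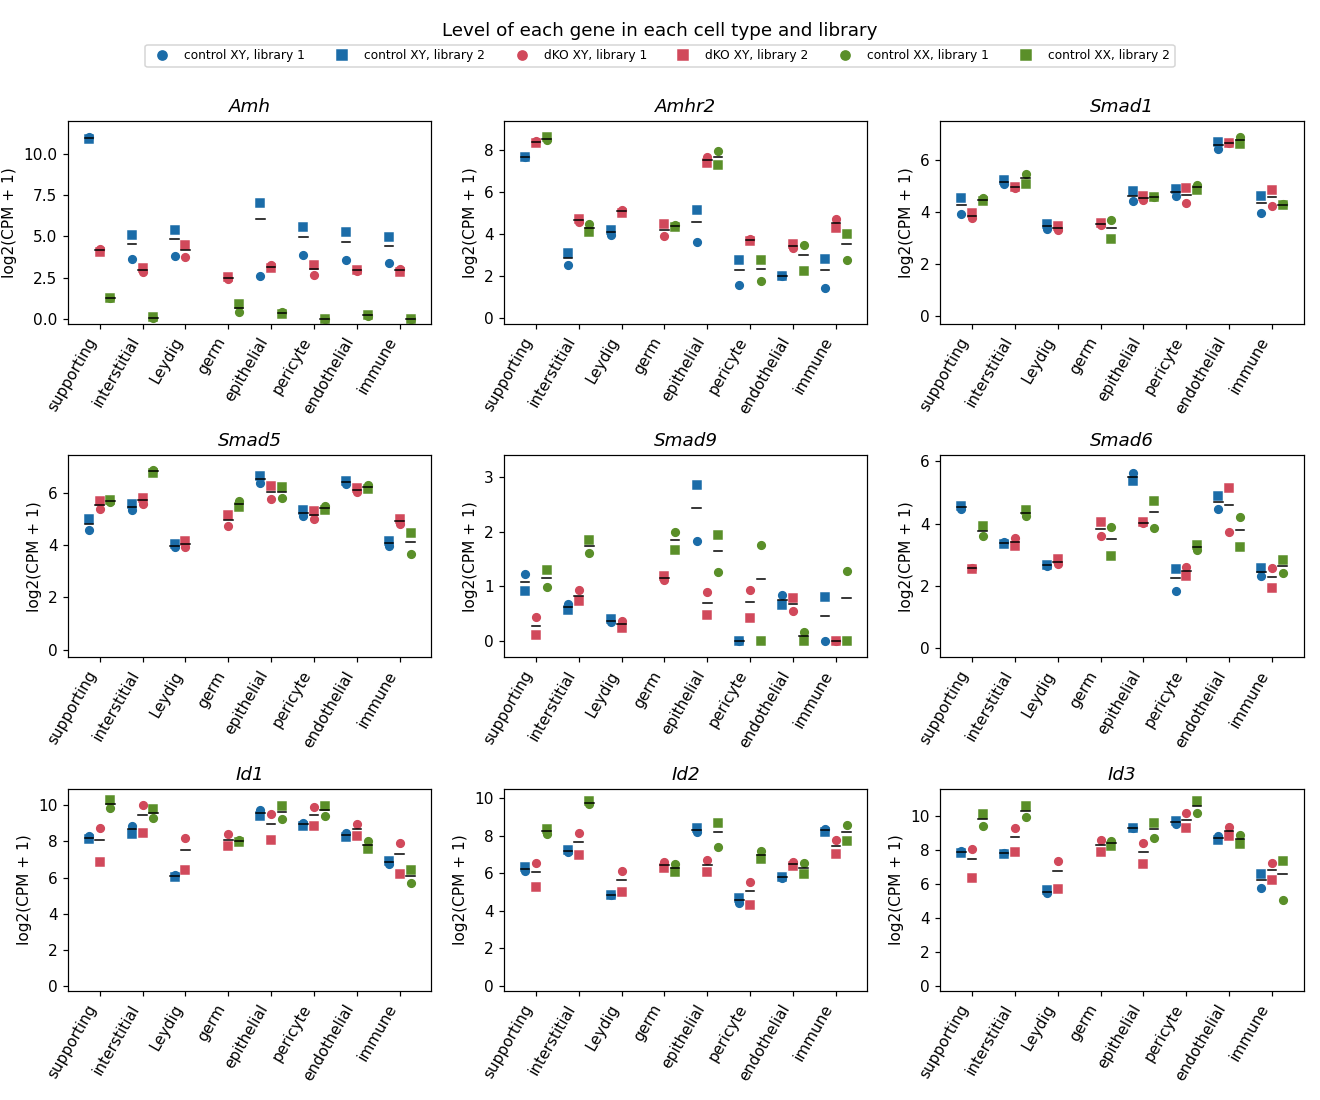
Level of each of the 9 genes as log2(CPM + 1) in each cell type and library with at least 20 cells, with a bar at the mean CPM of each group. *Amh* was high in control XY supporting cells alone. *Amhr2* was high in supporting cells and, in dKO XY and control XX, in epithelial cells. The Id genes of dKO XY library 1 (red circles) lay above those of library 2 (red squares) in each type.

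Across the 3 groups, 5 of the 9 genes were called when dKO XY supporting cells were compared with control XY, against 16.6% of the 15938 genes tested. *Amhr2* and *Smad5* were higher, and *Amh*, *Smad6* and *Smad9* were lower. *Amh* is itself deleted in dKO XY, so its call here was set by the design. Every count that compares dKO XY with a control has it among the genes tested. In Sertoli-like cells alone 3 of the 8 genes tested were called (*Amh*, *Amhr2* and *Smad6*), against 14.4% of genes. Between control XX and control XY supporting cells, which are granulosa and Sertoli cells, 7 of 9 were called, against 48.8% of genes. *Amh* (-10.53 ± 0.20, edgeR adjusted p = 5.35e-09) and *Smad6* (-0.87 ± 0.16, adjusted p = 0.00135) were lower in control XX, and *Smad1* (0.16) and *Smad9* (0.09) were not called. For dKO XY against control XX 7 of 9 were also called, against 41% of genes, with *Id1* (-1.93 ± 0.46), *Id2* (-2.15 ± 0.33), *Id3* (-2.29 ± 0.44) and *Smad9* (-2.37 ± 0.54) lower in dKO XY (adjusted p = 0.00809, 0.000628, 0.00245 and 0.00633) and *Smad5* (-0.09) not called.

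Of *Smad1*, *Smad5* and *Smad9*, which the AMH and BMP receptors activate, *Smad5* (chromosome 13, 56703010 to 56742377) was the one whose mRNA rose in dKO XY supporting cells. Supporting cells had 22.7 and 31.3 CPM in control XY, 41.4 and 50.5 CPM in dKO XY and 49.4 and 52.6 CPM in control XX. Neither of the latter groups overlapped control XY. The level was 1.69-fold higher in dKO XY (0.76 ± 0.17, edgeR adjusted p = 0.0124) and 1.80-fold higher in control XX (0.85 ± 0.17, adjusted p = 0.00213) than in control XY. The dKO XY call was lost without control XY library 1 (adjusted p = 0.0912) or without dKO XY library 2 (adjusted p = 0.0855). In Sertoli-like cells the values were 18.6 and 28.9 CPM against 35.1 and 43.9 CPM, and the difference narrowly missed the threshold (0.66 ± 0.20, adjusted p = 0.0531). It was called there by DESeq2 (adjusted p = 0.0439). The log2 fold change was 1.03 without control XY library 2 and 0.84 without dKO XY library 1. In interstitial cells *Smad5* had 39.8 and 46.9 CPM (control XY) against 47.3 and 55.8 CPM (dKO XY), which did not pass the test (0.24 ± 0.11, adjusted p = 0.271), and at 118 and 107 CPM in control XX (1.44 ± 0.11, adjusted p = 7.66e-05).

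*Smad1* (chromosome 8, 79338395 to 79399518) was highest in endothelial cells of all 3 groups, at 86.7 to 119 CPM, and lowest in Leydig cells of the XY groups, at 9.07 to 10.8 CPM. Supporting cells had 14.4 and 22.2 CPM in control XY, 12.7 and 14.6 CPM in dKO XY and 22.2 and 20.7 CPM in control XX. The first pair of groups overlapped, and *Smad1* was not called between them (-0.44 ± 0.19, edgeR adjusted p = 0.17), while dKO XY was 1.51-fold lower than control XX (-0.60 ± 0.19, adjusted p = 0.0275). *Smad9* (chromosome 3, 54755582 to 54801257) was close to the detection limit. Its supporting cell counts were 11 and 14 UMIs for control XY, 84 and 44 for control XX and 13 and 3 for dKO XY, or 1.35 and 0.899, 0.981 and 1.46, and 0.349 and 0.0844 CPM. Of the 11 in control XY library 1, 8 lay in the 11 cells of the unnamed subcluster, up to 4 in a single cell, and 2 in the 190 Sertoli-like cells. Without the highest doublet scores the mean level of control XY was 0.505 CPM in place of 1.12 CPM. It was called lower in dKO XY (-2.28 ± 0.63, adjusted p = 0.0347), but not after 5 of the alternatives, such as the stricter mitochondrial filter (adjusted p = 0.326). It had too few counts to be tested in Sertoli-like cells, where the control XY libraries held 2 and 11 UMIs and the dKO XY libraries 6 and 2.

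*Smad6*, on the minus strand of chromosome 9 from 63953076 to 64022059, was called lower in supporting, Sertoli-like and epithelial cells of dKO XY. The window before its start, chr9:64022060-64022309 (GRCm38.p6, RefSeq, minus strand), is shown beside that of *Amhr2* because these genes moved in opposite directions; it holds none of the 3 motifs on either strand, so no base is in capitals.
Smad6: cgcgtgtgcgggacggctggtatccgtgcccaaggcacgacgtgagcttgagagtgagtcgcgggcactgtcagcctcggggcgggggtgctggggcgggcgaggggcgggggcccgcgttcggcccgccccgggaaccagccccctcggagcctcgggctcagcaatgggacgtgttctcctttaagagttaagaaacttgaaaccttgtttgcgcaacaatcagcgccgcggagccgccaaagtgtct
GGCGCC is found in 9.59% and CAGAC in 42.2% of all windows of this length.

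Control XY supporting cells had 21.4 and 22.7 CPM of *Smad6*, from 174 and 353 UMIs. The dKO XY libraries had 4.94 and 4.87 CPM, from 184 and 173 UMIs, and control XX had 11.0 and 14.0 CPM. The dKO XY level was thus below that of either control, 4.47-fold lower than control XY (-2.16 ± 0.17, edgeR adjusted p = 4.32e-05) and 2.44-fold lower than control XX (-1.29 ± 0.16, adjusted p = 0.000183). In Sertoli-like cells the fall was 7.55-fold, from 19.4 and 20.7 CPM to 3.02 and 2.44 CPM (-2.92 ± 0.21, adjusted p = 1.34e-05). The summed interstitial markers in these cells were 137 and 206 CPM in control XY and 123 and 109 CPM in dKO XY. *Smad6* was called in supporting and in Sertoli-like cells in every alternative run. In the unnamed subcluster it was at 6.74 and 6.96 CPM in dKO XY, and the few control XY cells there (11 and 25) had 62.7 and 91.0 CPM from 24 and 49 UMIs.

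*Smad6* was also called lower in epithelial cells, as given above, but not in interstitial or Leydig cells. Interstitial cells had 9.71 and 9.27 CPM of *Smad6* in control XY and 10.7 and 8.79 CPM in dKO XY (0.03, 95% interval from -0.26 to 0.32, edgeR adjusted p = 0.941). Leydig cells had 5.28 and 5.39 CPM and 5.51 and 6.25 CPM (0.12, interval from -0.18 to 0.41, adjusted p = 0.726). The effect of the dKO genotype on *Smad6* differed between interstitial and supporting cells by 2.24 ± 0.16 in log2 (interaction of cell type and genotype in edgeR, adjusted p = 8.19e-06), and between Leydig and supporting cells by 2.32 ± 0.18 (adjusted p = 1.41e-05).

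The 3 Id genes lie on chromosomes 2 (*Id1*, 152736251 to 152737410), 12 (*Id2*, 25093799 to 25097140) and 4 (*Id3*, 136143497 to 136145755). In supporting cells *Id1* reached 312 and 275 CPM in control XY, 435 and 113 CPM in dKO XY and 917 and 1254 CPM in control XX. *Id2* was at 68.8 and 78.2 CPM, 93.6 and 37.0 CPM, and 277 and 324 CPM in the same order. *Id3* was at 240 and 219 CPM, 266 and 80.0 CPM, and 678 and 1073 CPM. For each gene control XX lay above every XY library, while the dKO XY libraries lay on either side of control XY. Control XX exceeded control XY 3.56-fold for *Id1* (1.83 ± 0.46, edgeR adjusted p = 0.00859), 3.93-fold for *Id2* (1.98 ± 0.33, adjusted p = 0.000811) and 3.67-fold for *Id3* (1.88 ± 0.44, adjusted p = 0.00545). The *Id1* call was lost without control XY library 2 (1.74, adjusted p = 0.0561). In edgeR 0 of the 3 were called when supporting cells of the XY groups were compared, with log2 fold changes of -0.10 ± 0.45, -0.17 ± 0.32 and -0.41 ± 0.42 and adjusted p of 0.918, 0.786 and 0.588, 0 of 3 had an unadjusted p under 0.05 and DESeq2 called 0 of 3.

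These values rested on which dKO XY library was used. Library 1 exceeded library 2 in all 8 cell types compared, 1.57 to 3.83 times for *Id1*, 1.14 to 2.53 times for *Id2* and 1.45 to 3.32 times for *Id3*. Between the control XY libraries the same ratios ran from 0.888 to 1.37, from 0.803 to 1.15 and from 0.562 to 1.17. Between the control XX libraries, over 7 cell types, library 1 had 0.595 to 1.38 times the *Id1*, 0.412 to 1.81 times the *Id2* and 0.201 to 1.41 times the *Id3* of library 2. Without dKO XY library 1, all 3 Id genes were called lower than in control XY supporting cells (*Id1* -1.35, *Id2* -0.97, *Id3* -1.495, edgeR adjusted p = 0.00309, 0.00589 and 0.00404). Without library 2, they were 0.54, 0.32 and 0.19 higher on the log2 scale and not called (adjusted p = 0.146, 0.298 and 0.716). A set of 13 genes that respond to dissociation and heat shock differed between the same libraries, with a summed level in interstitial cells of 12403 CPM in dKO XY library 1, 4391 CPM in library 2 and 10971 to 13678 CPM in the 4 control libraries. Its part in the levels of the Id genes was not tested.

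Cell types were next compared within each library. Supporting cells of control XY had 0.666 and 0.802 times the *Id1* level of interstitial cells of their own library, and those of dKO XY 0.421 and 0.317 times. For *Id2* the ratios were 0.494 and 0.522 in control XY and 0.334 and 0.297 in dKO XY. For *Id3* they were 1.06 and 1.02 in control XY and 0.432 and 0.343 in dKO XY. Both dKO XY libraries lay below both control XY libraries for all 3 genes. The share of all genes that separate in this way is not given, here or below. The same ratio for the dissociation and heat shock genes was 0.602 and 0.590 in control XY and 0.841 and 0.991 in dKO XY, and its part in these differences was not tested. The effect of the dKO genotype differed between interstitial and supporting cells by 1.03 ± 0.13 for *Id1*, 0.72 ± 0.08 for *Id2* and 1.46 ± 0.12 for *Id3* in log2 (edgeR with the library as a block, adjusted p = 0.00022, 0.000137 and 1.94e-05), which places supporting cells lower relative to interstitial cells in dKO XY. It differed between Leydig and supporting cells in the same direction, by 1.62 ± 0.13, 1.04 ± 0.09 and 1.63 ± 0.13 (adjusted p = 1.68e-05, 2.17e-05 and 1.29e-05). None of these 6 calls was lost when any of the 4 libraries was left out. In all, 8 of the 9 genes had a called difference between interstitial and supporting cells, against 25.2% of the 16496 genes tested, and 6 of 9 between Leydig and supporting cells, against 22.3%. Both counts include *Amh*, the deleted gene. *Smad1* was called in neither (0.28 and 0.38), and *Amhr2* (0.34) and *Smad9* (1.98) were not called in the comparison of Leydig and supporting cells.

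Sertoli-like cells showed the same relation. Their ratio to interstitial cells was 0.946 and 0.930 in control XY and 0.271 and 0.285 in dKO XY for *Id3*, 0.545 and 0.664 against 0.177 and 0.167 for *Id1*, and 0.351 and 0.371 against 0.243 and 0.313 for *Id2*. With Sertoli-like in place of all supporting cells, the difference of the dKO effect was 1.85 for *Id1*, 1.79 for *Id3* and 0.45 for *Id2* (adjusted p = 2.22e-06, 6.2e-06 and 0.0379). The levels themselves were 256 and 228 CPM of *Id1* in control XY and 183 and 59.6 CPM in dKO XY Sertoli-like cells, and 214 and 200 CPM against 167 and 66.5 CPM of *Id3*. Both dKO XY libraries were below both control XY libraries, but the differences missed the threshold (-1.05 ± 0.36 and -0.88 ± 0.31, edgeR adjusted p = 0.0849 and 0.087), as did *Id2* (-0.02) and *Smad1* (-0.42). *Id1* and *Id3* were called without the highest doublet scores (-1.17 and -0.96, edgeR adjusted p = 0.0395 and 0.0416). Without dKO XY library 1, which leaves 1 dKO XY library, they were at -2.04 and -1.66. *Id1* was at -1.15 without control XY library 2. The dissociation and heat shock genes were at 0.523 and 0.503 times the level of interstitial cells in control XY Sertoli-like cells and at 0.739 and 0.791 times in dKO XY. Their part in the differences of the Id genes was not tested. In control XX the ratio of supporting to interstitial cells was 1.43 and 1.39 for *Id1*, above the XY libraries, and 0.331 and 0.356 for *Id2* and 0.693 and 0.717 for *Id3*, below control XY.

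**Figure D3:**
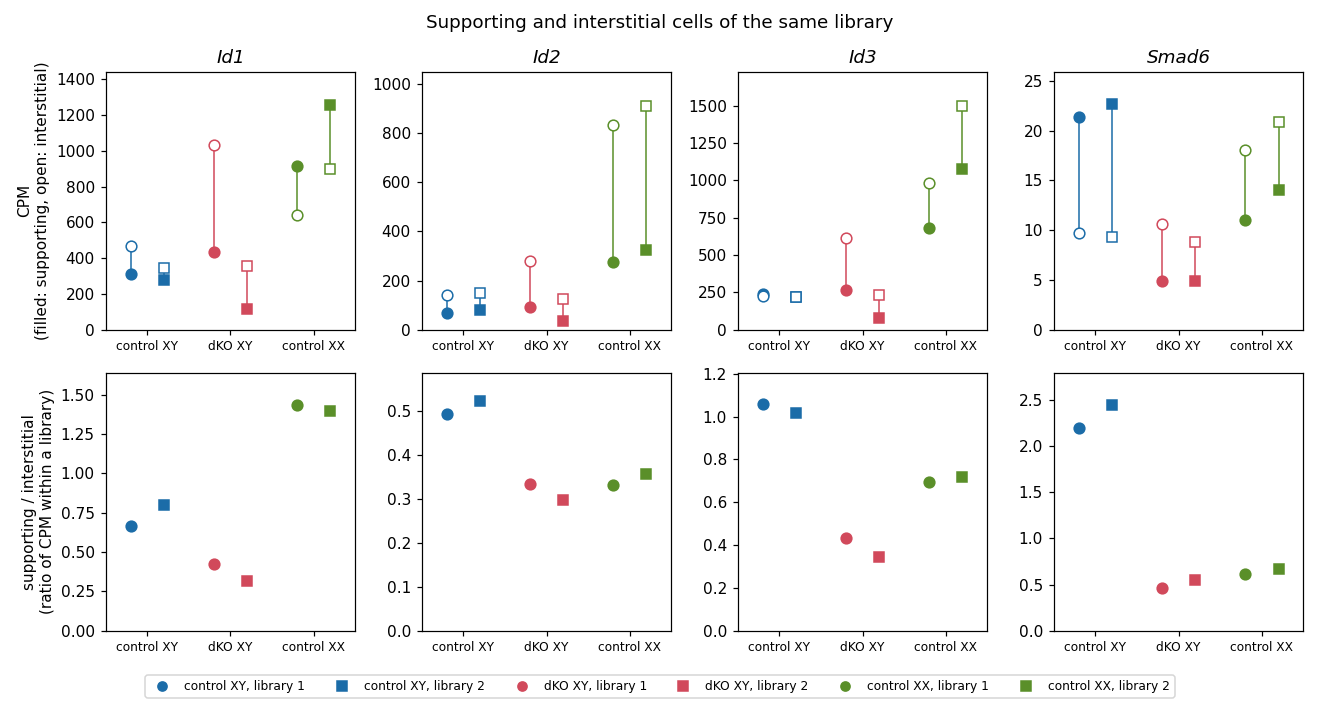
Top, CPM of *Id1*, *Id2*, *Id3* and *Smad6* in supporting (filled) and interstitial cells (open) of each library, joined by a line; bottom, the ratio of the 2 levels in each library. For each of the 4 genes both dKO XY ratios lay below both control XY ratios. For *Id3* they fell from 1.06 and 1.02 to 0.432 and 0.343. The share of all genes that separate in this way is not given.

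Among the interstitial cells, 2 of the 9 genes were called between dKO XY and control XY (*Amhr2* and *Amh*, described above), against 6.93% of 16985 genes. *Id1* had levels of 469 and 343 CPM in control XY against 1033 and 357 CPM in dKO XY (0.78 ± 0.45, edgeR adjusted p = 0.376). *Id2* was at 139 and 150 CPM against 280 and 125 CPM (0.49 ± 0.32, adjusted p = 0.452), and *Id3* at 227 and 215 CPM against 615 and 234 CPM (0.95 ± 0.42, adjusted p = 0.246). *Smad1* (-0.21) and *Smad9* (0.53) were not called. Library 1 of dKO XY was the highest XY library for each gene, and library 2 lay within or near the control XY range. Without library 2, which leaves 1 dKO XY library, the log2 fold changes of the 3 Id genes were 1.36, 0.97 and 1.49. The 2 clusters that held most XY interstitial cells were also fitted alone. Only *Amhr2* was called in each, 3.49-fold higher in cluster 0 (1.80 ± 0.19, adjusted p = 0.00731), against 8.3% of genes, and 5.27-fold higher in cluster 1 (2.40 ± 0.23, adjusted p = 0.00477), against 8.6% of genes.

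Control XX interstitial cells had 835 and 911 CPM of *Id2* and 978 and 1498 CPM of *Id3*, which was 6.33-fold and 5.92-fold above control XY (2.66 ± 0.34 and 2.56 ± 0.44, edgeR adjusted p = 0.000952 and 0.0038). *Id1*, at 639 and 899 CPM, was not called (1.00 ± 0.45, adjusted p = 0.147). In all 7 of 9 genes were called between control XX and control XY interstitial cells, against 25.2% of genes, and *Amh* was the only one that was lower. *Amhr2* (1.66 ± 0.21), *Smad6* (1.11 ± 0.15) and *Smad9* (2.20 ± 0.28) were higher (adjusted p = 0.000983, 0.00126 and 0.000981), and *Smad1* (0.20) was not called. Since most XX interstitial cells (1535 and 2942) lay in 1 cluster, the comparison was repeated within it. Of control XY, 263 and 232 cells lay in that cluster, and of dKO XY, 640 and 318. There 5 of the 9 genes were called, against 11.2% of 13388 genes. *Id2* and *Id3* were still called higher in control XX, by less (1.27 ± 0.16 and 1.03 ± 0.27, adjusted p = 0.000562 and 0.0325). *Amhr2* (1.97 ± 0.27) and *Smad5* (0.77 ± 0.16) were also called there (adjusted p = 0.000824 and 0.00847), as was *Amh*, which was lower (-8.09), while *Id1* (0.88), *Smad1* (0.0051), *Smad6* (0.28 ± 0.18, adjusted p = 0.377) and *Smad9* (-0.12 ± 0.34, adjusted p = 0.874) were not.

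In Leydig cells *Amhr2* alone of 8 genes tested was called between dKO XY and control XY, against 6.29% of genes. *Id1* had levels of 70.2 and 64.1 CPM in control XY against 287 and 85.6 CPM in dKO XY (1.46 ± 0.46, edgeR adjusted p = 0.113). *Id2* was at 27.5 and 28.0 CPM against 67.8 and 31.1 CPM (0.81 ± 0.31, adjusted p = 0.18), and *Id3* at 42.1 and 48.2 CPM against 160 and 49.8 CPM (1.20 ± 0.44, adjusted p = 0.17). Both dKO XY libraries were above both control XY libraries for all 3, library 2 by little, and the differences were not called. How many of all genes separate in this way is not given. Without dKO XY library 2, which leaves 1 dKO XY library, the log2 fold changes of the 3 Id genes were 2.09, 1.28 and 1.82 in the same order. *Amh* (-0.71), *Smad1* (-0.10) and *Smad5* (0.06) were not called either. The dKO effect in Leydig cells exceeded that in interstitial cells for *Id1* (0.59 ± 0.13, adjusted p = 0.0205) and *Id2* (0.32 ± 0.08, adjusted p = 0.0435) and was smaller for *Amhr2* (-0.996 ± 0.18, adjusted p = 0.0097), 3 of 9 genes against 6.94% of all genes. The other 6 genes were not called, with differences of 0.95 for *Amh*, 0.17 for *Id3*, 0.10 for *Smad1*, -0.21 for *Smad5*, 0.08 for *Smad6* and -0.93 for *Smad9*. Each of these 3 calls was lost under the stricter mitochondrial filter. The *Id2* call was also lost without any single XY library (0.27 to 0.38) or with Sertoli-like in place of all supporting cells. *Id1* lost its call without control XY library 1 (0.43) or dKO XY library 1 (0.52), and *Amhr2* without dKO XY library 2 (-0.83).

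In endothelial cells, pericytes and immune cells, 0 of the 8 genes tested were called in edgeR, against 0.592%, 0.282% and 0.00887% of all genes. At an unadjusted p under 0.05 there were 4, 2 and 4, and DESeq2 called 1, 0 and 0. No share over all genes is given for these counts, and the shares above hold for the adjusted threshold only. In endothelial cells and pericytes *Amh* (log2 fold changes -1.92 and -2.16, adjusted p = 0.0774 and 0.0897) and *Amhr2* came nearest to the threshold, and in immune cells *Amhr2* and *Smad5* (0.82, adjusted p = 0.398) did, with *Amh* at -1.56. The Id genes of these types had log2 fold changes from -0.87 (*Id2*, immune cells) to 0.73 (*Id2*, endothelial cells), *Smad1* from -0.11 to 0.19 and *Smad6* from -0.19 to 0.25. *Smad5* was at -0.29 in endothelial cells and -0.09 in pericytes. Leaving out a library gave calls of *Amh* in pericytes (without either control XX library, adjusted p = 0.0459 and 0.0422, or control XY library 1) and in endothelial cells (without control XX library 1 or control XY library 1). Without control XY library 2, the log2 fold change of *Amh* was -0.99 in pericytes, -0.67 in endothelial cells and -0.59 in immune cells (adjusted p = 0.826, 0.963 and 0.9999). Leaving out a library also gave calls of *Amhr2* in endothelial cells (without control XX library 1 or 2) and in pericytes (without control XY library 2, adjusted p = 0.0196).

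**Figure D4:**
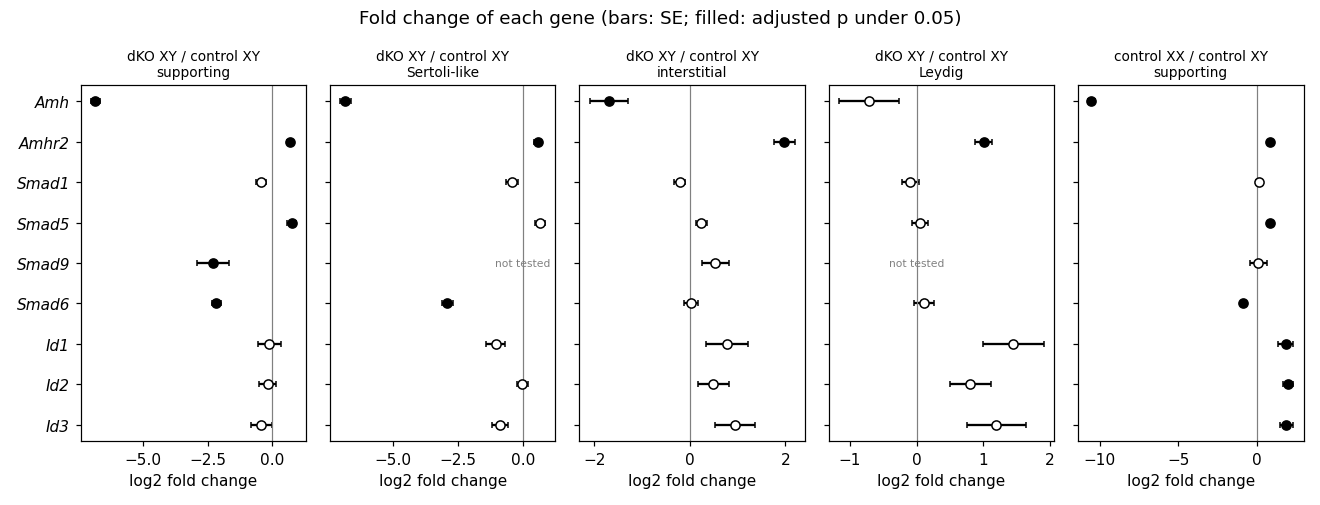
Log2 fold change ± SE of each gene in 5 comparisons from edgeR, filled where the adjusted p was under 0.05; each panel has its own axis, and *Smad9* had too few counts in Sertoli-like and Leydig cells. *Smad6* fell in supporting and Sertoli-like cells and not in interstitial or Leydig cells, and *Amhr2* rose in all 4.

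The surrounding pathway was described with 8 lists of 49 genes: receptors, other SMADs, inhibitors, targets, BMP ligands, convertases, transcription factors that act on the *Amh* promoter, and E proteins. In supporting cells, dKO XY against control XY, 18 of the 47 genes tested were called, 10 higher and 8 lower, against the 16.6% of all genes given above. Their median log2 fold change was 0.03, beside 0.02 over all genes. Each list split or moved as follows.

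Of 6 BMP ligands 3 were higher and 0 lower. *Bmp2* rose from 1.72 and 1.86 CPM to 23.9 and 20.4 CPM (3.62 ± 0.19, edgeR adjusted p = 5.17e-06) and, in Sertoli-like cells, from 1.16 and 0.909 CPM to 4.90 and 3.13 CPM (1.95 ± 0.40, adjusted p = 0.00778), and *Bmp4* and *Bmp7* were called as well. In control XX *Bmp2* was also above control XY (5.56 ± 0.18, adjusted p = 3.4e-08). Of the convertases, which cleave AMH and other precursors of this superfamily, 1 of 3 was called: *Pcsk6* rose from 17.1 and 17.6 CPM to 78.7 and 119 CPM (2.52 ± 0.26, adjusted p = 0.000178). Of 6 receptors other than *Amhr2* 2 were lower, the type I receptor *Acvr1* (-0.69) and the type II receptor *Bmpr2* (-0.72).

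Of the 4 other SMADs, the inhibitory *Smad7* fell from 384 and 490 CPM to 203 and 132 CPM (-1.38 ± 0.21, edgeR adjusted p = 0.00165), and *Smad3*, which activins use, rose from 15.0 and 17.4 CPM to 24.1 and 31.7 CPM (0.78 ± 0.17, adjusted p = 0.0129). Both inhibitory SMADs were thus lower in dKO XY supporting cells. *Smad7* was also lower in Sertoli-like cells (-1.28 ± 0.18, adjusted p = 0.000954), where *Smad3*, at 14.9 and 17.1 CPM against 19.3 and 19.0 CPM, was not called (0.20 ± 0.16, adjusted p = 0.491). Of 11 inhibitors tested 3 were lower and 0 higher.

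Of 7 other targets of BMP-activated SMADs tested 3 were higher and 1 lower. Their median log2 fold change was 1.59, beside 0.02 over all genes, but it rests partly on genes near the floor in control XY. *Gata2* had 0.123 and 0.385 CPM there, and *Gata3* 1.11 and 0.193 CPM. *Msx1*, a homeobox gene, went from 0.37 and 0 CPM to 5.10 and 8.08 CPM (adjusted p = 0.000403), with no fold given because control XY held too few counts. *Gata2* rose from that low level to 1.29 and 1.66 CPM in dKO XY (2.35). *Hey1* (1.23) also rose, and *Atoh8* (-2.39) fell. The targets thus moved in both directions. Of 7 transcription factors that act on the *Amh* promoter, *Nr0b1* rose from 11.4 and 8.67 CPM to 48.4 and 37.3 CPM (2.12 ± 0.18, adjusted p = 7.31e-05) and *Wt1* rose (0.70), while *Sox8* fell from 52.0 and 60.9 CPM to 28.5 and 27.4 CPM (-1.01 ± 0.13, adjusted p = 0.000589). None of the 3 E protein genes was called in edgeR, 0 at an unadjusted p under 0.05 and 0 in DESeq2.

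In interstitial cells 9 of 48 genes tested were called, against 6.93% of all genes, 8 of them higher, including *Pcsk6* (1.12 ± 0.20, edgeR adjusted p = 0.0177), *Wt1* (0.59) and *Pcsk5* (0.59). In Leydig cells 5 of 47 were called, against 6.29%, among them *Bmp6*, which was lower (-1.04 ± 0.14, adjusted p = 0.00816), as was *Acvr1* (-0.55), while *Zfpm2* (0.75) and *Pcsk5* (0.55) were higher. In Sertoli-like cells 15 of 42 were called, against 14.4%. There *Nr0b1* (2.08), *Pcsk6* (1.83) and *Wt1* (0.63) were higher, and *Bmpr2* (-0.81) and *Sox8* (-0.56) lower. In epithelial cells 10 of 45 were called, against 6.36%, 5 of them higher and 5 lower. Those with a mean of at least 4 log2 CPM were *Nr0b1* (3.77 ± 0.43, adjusted p = 0.00184), *Nr5a1* (2.34 ± 0.35, adjusted p = 0.00468), *Bmp2* (2.33 ± 0.29, adjusted p = 0.00297) and *Bmp7* (2.27 ± 0.39, adjusted p = 0.00837), all higher, and *Twsg1*, a BMP-binding protein, which was lower (-0.99). In endothelial cells *Wt1* was the 1 gene called of 38, against 0.592%, and was lower (-0.96). Between control XX and control XY supporting cells 31 of 47 were called, against 48.8%, with *Tcf12*, an E protein gene, higher (2.07 ± 0.15, adjusted p = 3.11e-06) and *Sox9*, which activates *Amh*, lower (-2.06 ± 0.13, adjusted p = 1.49e-06). *Sox8* (-4.73) and *Pcsk5* (-3.04) were lower in control XX, and *Pcsk6* (2.04) and *Msx1* were higher. Between dKO XY and control XX in the same cells 25 of 47 were called, against 41%, and *Sox9* was 3.72-fold higher in dKO XY (1.89 ± 0.13, adjusted p = 4.27e-06). *Sox8* (3.73), *Pcsk5* (3.23) and *Nr5a1* (0.95) were also above control XX there, and *Msx1* (-3.23), *Bmp2* (-1.94) and *Tcf12* (-1.87) below it. For interstitial cells of control XX against control XY, 30 of 48 were called, against 25.2%, of which *Wt1* (2.56), *Id4* (1.80), *Zfpm2* (1.20), *Bambi* (1.14) and *Smad7* (0.96) were higher and *Sox9* (-2.96), *Pcsk5* (-1.67) and *Nr5a1* (-1.31) lower in control XX.

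Likeness of pattern was measured as Pearson's r of log2 CPM over the sums of a library and cell type, which share libraries, depth and cell mix, and is given as a description. Over 28 sums of the control libraries, *Amh* was most like *Defb19* (r = 0.91), another Sertoli cell gene, followed by *mt-Co3* (0.813), and *Ptch1* (0.797) and *Abcb10* (0.79) were among the next. Over 45 sums of all libraries *Amhr2* was most like *Lgals7* (0.952), *RP23-313J14.5* (0.916), *Wnt6* (0.913), *Isyna1* (0.901) and *Espn* (0.898). *Id1* and *Id3* were most like each other (0.908), and *Id4*, a further member of the family, followed for *Id1* (0.841) after *Tusc3* (0.841) and before *Ctxn1* (0.834) and *Hnrnpk* (0.808). After *Id1*, *Id3* was most like *Fam118a* (0.846), *Hnrnpk* (0.839), *Wtip* (0.81) and *Rpl9* (0.804). *Id2* had looser neighbors, *Tgfbi* (0.742), *Pim1* (0.683), *Tnfaip8* (0.676), *Ncoa4* (0.656) and *Thbs1* (0.649).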

How the data were processed

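Gonads at E15.5 were profiled with 10x Genomics single cell mRNA libraries. For each library the authors deposited UMI counts that are not normalized, as a matrix with its gene symbols and barcodes. They were made with Cell Ranger and corrected for swapped barcodes, and the submitters' processing notes also name Seurat 4.0.

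Barcodes with over 2500 but under 9000 genes, less than 25% of UMIs from mitochondrial and less than 20% from *Hbb* genes were kept and clustered with Seurat 5.3.0 (R 4.3.3, scaling to 10000, 3000 variable genes, 20 dimensions, resolution 0.21). Of the variable genes, the 22 that are among the 9 genes or the pathway lists were left out. Supporting cells were clustered again (8 dimensions, resolution 0.25) after leaving out cells with a log level of *Sycp3* (germ cells) or *Tcf21* (interstitial cells) of 1 or more. A cluster was named from at least 3 markers of a class, each in at least 10% of its cells and 1.5 times the level elsewhere. Doublets were scored with Scrublet in scanpy 1.11.5, whose automatic threshold marked 0 to 71 cells per library. Since this was below 0.5% in 5 of 6 libraries, doublets stayed in, and in an alternative the top 8% by score were removed.

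UMIs were summed per library and type with at least 20 cells and tested in edgeR 4.0.16 (filterByExpr, TMM, glmQLFit, glmQLFTest), with group as the only factor. The 3 groups shared one estimate of the spread, except for Sertoli-like and Leydig cells, which control XX lacks. The interaction of cell type and dKO used the library as a block. P-values were adjusted by Benjamini-Hochberg over all genes tested. Standard errors were taken as the size of a log2 fold change over the root of its F statistic. An exact permutation test of 2 against 2 libraries cannot reach 0.05, so none was run. DESeq2 1.42.0, no filter, RLE size factors, a replicate block, 2 groups only, all variable genes, doublet and mitochondrial filters and leaving out each library were alternatives. The single-cluster and Sertoli-like alternatives were added after the data were seen. The tests were checked on simulated data.

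The 9 genes and all gene lists were chosen with earlier results of these data known. All 9 genes are named in every main comparison where they were tested. Of the pathway lists, up to 8 called genes per comparison are named by size of change where their mean log2 CPM was 4 or more. In supporting cells *Acvr1*, *Bmpr2*, *Bmp4*, *Bmp7*, *Wt1*, *Atoh8*, *Gata2* and *Hey1* were named beside these after their values were seen. Some genes that these rules select are not reported here. The 5 genes most like a gene were taken among those whose mean log2 CPM was 3 or more. Intervals of shares and the limit from 3 counts cover counting error only. Gene positions came from the GENCODE M21 annotation of GRCm38, where all 9 symbols were found (the files give symbols and the labels mm10). The annotation release behind the counts is not given in the sources used here. Promoter windows came from a RefSeq table that held 7 of the 9 genes.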

Additional observations from a re-analysis of the deposited data

Results flagged for a closer look

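Each result here was singled out because the effect of the dKO genotype differed between cell types by the interaction test of edgeR, as differences of log2 fold changes in the 4 XY libraries. Interstitial minus supporting cells gave 5.45 for *Amh*, 1.34 for *Amhr2*, 1.03 for *Id1*, 0.723 for *Id2*, 1.46 for *Id3*, -0.465 for *Smad5*, 2.24 for *Smad6* and 2.91 for *Smad9*. Leydig minus supporting cells gave 6.4 for *Amh*, 1.62 for *Id1*, 1.04 for *Id2*, 1.63 for *Id3*, -0.671 for *Smad5* and 2.32 for *Smad6*. The *Amh* value was 5.53 without control XY library 1 and 7.27 without control XY library 2. Leydig minus interstitial cells gave -0.996 for *Amhr2*, 0.59 for *Id1* and 0.321 for *Id2*. Positive values mean that the change from control XY to dKO XY was less negative or more positive in the first type named. *Amh* is the gene deleted in dKO XY and was high in control XY supporting cells alone, so its differences were set by the design. The *Smad9* value rests on 13 and 3 supporting cell UMIs in the dKO XY libraries and was not called under the stricter mitochondrial filter (2.00, adjusted p = 0.118). The *Smad5* difference between interstitial and supporting cells was not called without dKO XY library 2 (-0.42, adjusted p = 0.0557) or with Sertoli-like cells (-0.41, adjusted p = 0.0553).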

How the results depend on the processing

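Of 1169 values of single genes recomputed under the alternatives, 1025 kept their direction and their side of the threshold, 54 lost a call, 63 gained one and 27 changed direction. The last were values without a call, except *Amh* in epithelial cells and *Smad9* between control XX and control XY interstitial cells, and the cause was not tested. Counts of called genes moved by more than 1.5 times as follows. In Leydig cells 1 gene became 5 without a filter on low counts and 2 without the highest doublet scores, and in Sertoli-like cells 3 became 6 under either. In endothelial, pericyte, immune and epithelial cells together 4 became 15 without the filter and 9 with 2 groups only. Without the filter, *Amh* in pericytes kept its log2 fold change of -2.16 while the edgeR adjusted p went from 0.0897 to 7.0e-18. No share over all genes is given for these alternatives, so their counts cannot be set against it. In interstitial cells (dKO XY against control XY) 2 became 1 with DESeq2, all variable genes, under 10% mitochondrial UMIs or 2 groups only. It was also 1 in cluster 0 or 1 alone. In cluster 2 alone it was 0, and edgeR called 0 of 13388 genes there. In that cluster 2 of the 9 genes had an unadjusted p under 0.05, with no share over all genes given for it.

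Leaving out each library gave 3 to 8 called genes in dKO XY against control XY supporting cells, 3 to 5 in Sertoli-like, 1 to 4 in interstitial, 1 to 5 in Leydig and 1 to 9 in the 4 other types together. It gave 6 to 7 for each comparison of supporting cells with control XX, 7 to 8 for control XX against control XY interstitial cells and 14 to 17 for the differences between types. The share of all genes called in each of these fits is not given, so these ranges cannot be set against it. They show only how far the calls depend on single libraries.

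The labels do not say whether the replicate numbers pair the libraries. Deviations of same-numbered control XY and dKO XY libraries correlated at 0.175 in supporting and 0.239 in interstitial cells, but those of control XX with either were between -0.469 and -0.298. With 2 libraries per group, a negative value is equally large and positive with the other number, so these values cannot settle the pairing. With the number as a replicate block, 6 genes were called in Sertoli-like cells (with *Id1* -1.25, *Id3* -1.02 and *Smad5* 0.70 gained) and 2 in Leydig cells (*Id1* 1.20 gained). *Amh* gained a call in pericytes (-1.996, adjusted p = 0.0235) and endothelial cells (-1.64, adjusted p = 0.0306) and lost it in epithelial cells (-2.51, adjusted p = 0.0682), and no other count moved by more than 1.5 times.

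The direction changed for *Id2* in Sertoli-like cells (log2 fold change 0.33 with the mitochondrial filter, 0.0028 without the low-count filter, 0.16 without the highest doublet scores), for *Smad5* (-0.11) and *Smad6* (-0.0026) in Leydig cells with the mitochondrial filter, and for *Smad5* (-0.12) and *Smad6* (-0.13) in interstitial cluster 2 alone. It also changed for *Smad6* (-0.045) and *Smad9* (-0.21) in cluster 1 alone, for *Smad9* in cluster 0 alone (-0.33), and for *Smad9* between control XX and control XY in cluster 2 alone (-0.12). With 1 library left out, the lowest and highest values were -1.31 and 0.33 for *Amh* in Leydig and -3.95 and 0.62 in epithelial cells, -0.20 and 1.36 for *Id1* in interstitial and -1.35 and 0.54 in supporting cells, and -0.45 and 0.31 for *Id2* in Sertoli-like (0.067 without control XY library 2), -0.23 and 0.97 in interstitial and -0.97 and 0.32 in supporting cells. They were -1.495 and 0.19 for *Id3* in supporting, -0.19 and 0.0015 for *Smad1* and -0.0501 and 0.15 for *Smad5* in Leydig, and -0.13 and 0.18 for *Smad6* in interstitial cells. In supporting cells they were -0.12 and 0.52 for *Smad1* and -0.24 and 0.37 for *Smad9* (control XX against control XY), with *Smad9* at -0.17 without control XX library 2, and -0.25 and 0.059 for *Smad5* (dKO XY against control XX).

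Depth limits *Smad9*, with 3 to 84 UMIs per library in supporting cells, and control XY epithelial cells, with 30 and 39 cells.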
